A study of Mus musculus with 8 samples.

Results

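The genes of transforming growth factor beta (TGF-beta) and bone morphogenetic protein (BMP) signalling were read in mouse liver after a short exposure to recombinant FGF21 (rFGF21), a liver-derived hormone. A list of 44 genes was matched by gene name to the deposited expression table, and all 44 were found among its 30266 genes. The list holds 11 ligand genes, 7 genes of secreted binding and matrix proteins, 11 receptor genes, 6 genes of signalling Smads, and 9 genes of inhibitors and target genes. Both groups were whole liver of male mice, 8 weeks old and labelled Mdr2-/-. Mdr2 (Abcb4) encodes a canalicular phospholipid transporter whose loss leads to cholestatic liver injury with scarring. One group of 4 libraries received vehicle (PBS) and the other group of 4 received rFGF21 at 1.0 mg/kg for 4 h. No group without the Mdr2 deletion was analysed here. The labels do not state that each library came from its own animal, so the p-values measure the spread between these libraries. A library is called by its group and its column number in the table.

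Library totals lay between 62756328 and 73313449 reads. Hepatocyte markers fitted the liver label, with a summed level of 79550 to 99690 CPM over 8 genes in PBS libraries. CPM are read counts scaled to library size, with factors from the trimmed mean of M values (TMM). The extraction protocol in the labels names retina, and the photoreceptor genes Crx and Rcvrn were at 0 reads in all 8 libraries. All 44 genes passed the filter on low counts. Their lowest count was 21 reads (Bmper) and their highest 13924 (Id2).

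As background, ligands of this family bind pairs of type I and type II receptor kinases, and the type I receptor phosphorylates signalling Smads. TGF-beta and activins act mainly through Smad2 and Smad3, BMPs through Smad1, Smad5 and Smad9, and both branches use Smad4. Smad6, Smad7, the Smurf ubiquitin ligases and Skil restrain the signal, and the Id genes are classic BMP targets. In liver, TGF-beta drives matrix production by stellate cells, BMPs of the sinusoid control hepcidin and iron, and hepatocytes express the activin subunit genes Inhbc and Inhbe.

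Levels were compared between genes as RPKM, the TMM-scaled CPM per kilobase of annotated exon. Over the 8 libraries Id2 had the highest mean of the set (54.0 RPKM) and Bmper the lowest (0.363 RPKM). Among ligand genes in PBS, Inhbc led at 20.5 ± 2.67 RPKM (SD, n = 4). Inhbe followed at 9.49 ± 2.40 RPKM and Gdf2, which encodes BMP9, at 7.58 ± 1.70 RPKM. Inhbe and Gdf2 did not differ beyond their spread. The order of Inhbc and Inhbe rests on annotated exon lengths of 1859 and 5319 bases. Without scaling by length, Inhbe stood higher in PBS, at 50.5 ± 12.7 CPM against 38.0 ± 4.96 CPM for Inhbc. Tgfb1 stood at 3.23 ± 0.432 RPKM, and Tgfb2 at 1.05 ± 0.173 RPKM had a lower mean than every ligand gene but Inhbb. Among receptors the endothelial co-receptor gene Eng led at 18.6 ± 3.29 RPKM. Tgfbr2 at 8.65 ± 0.823 and Tgfbr1 at 7.71 ± 1.01 RPKM did not differ beyond their spread, and Acvr2b was lowest at 0.499 ± 0.124 RPKM. Smad4 led the Smads at 7.22 ± 0.795 RPKM, and Tgfbi, a matrix protein induced by TGF-beta, led the extracellular group at 28.0 ± 6.46 RPKM.

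**Figure D1:**
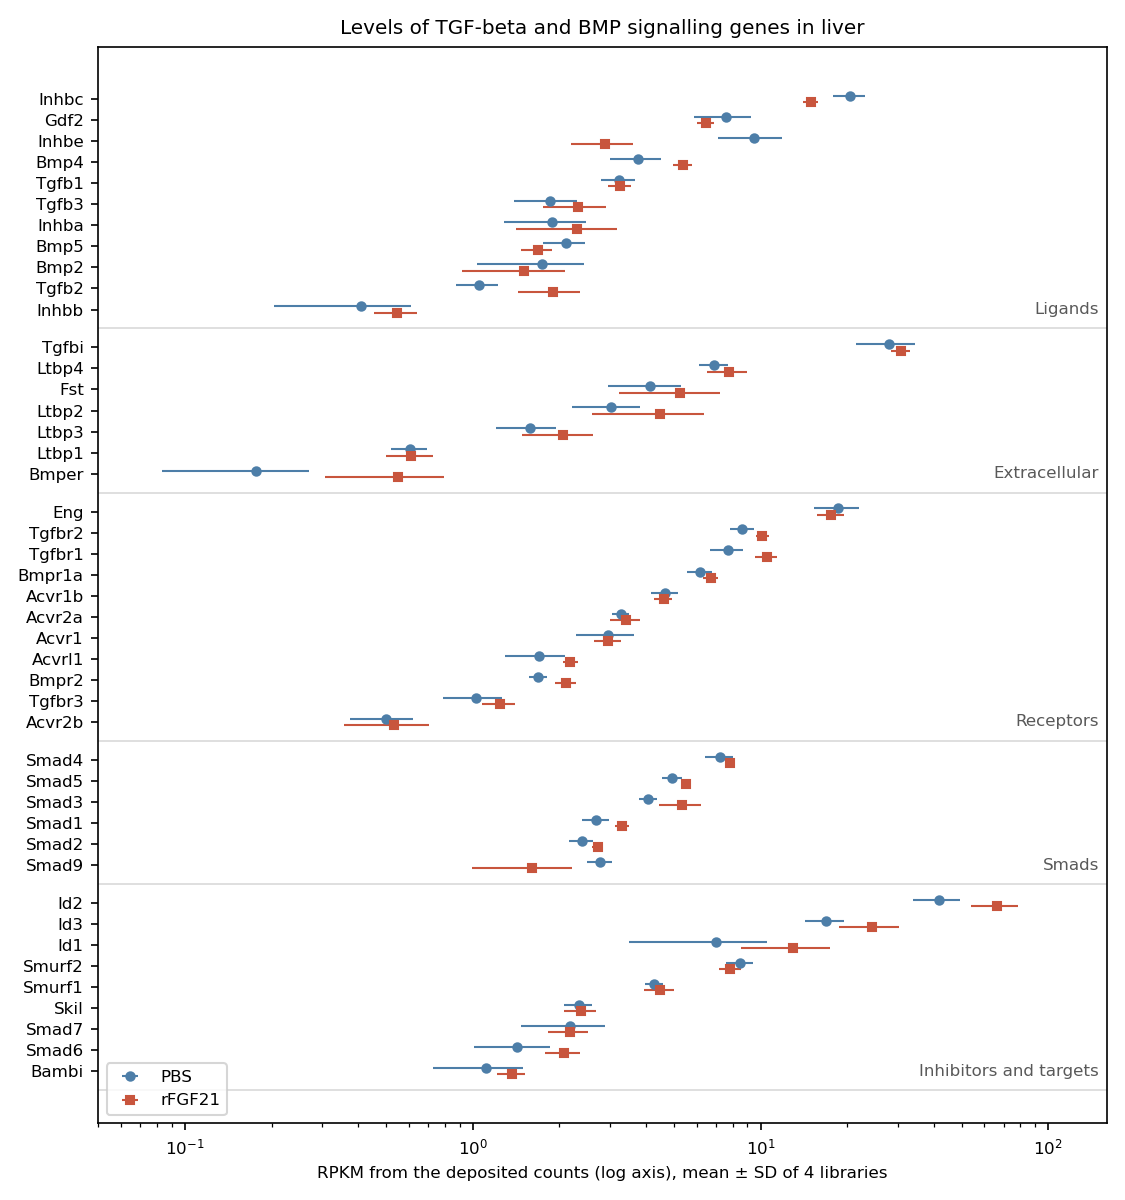
Mean level of each of the 44 genes in PBS and rFGF21 libraries, as RPKM on a log axis, with bars for the SD of 4 libraries. Inhbe stands at 9.49 RPKM in PBS and 2.89 RPKM after rFGF21, and Id2, Tgfbi, Eng, Inhbc and Smad4 lead their role groups.

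rFGF21 was compared with PBS on the read counts of 18315 genes with edgeR's quasi-likelihood test, and a gene is called changed at a Benjamini-Hochberg adjusted p under 0.05. Of the 44 genes, 3 changed (6.82%), against 2.82% of all genes tested. They were the activin subunit genes Inhbe and Inhbc, which fell, and the ligand gene Tgfb2, which rose. Over all genes 1.15% were called higher and 1.67% lower. At an unadjusted p under 0.05, 12 of the 44 were higher and 3 lower, against 8.92% and 9.86% of all genes (18.8% in either direction). The 2 groups of libraries did not overlap in 7 higher and 3 lower members, against 5.9% and 6.39% of all genes (12.3% in either direction). DESeq2 called 7 of the 44 higher and 3 lower, against 3.76% and 4.48% of all genes, and limma on log2(RPKM + 1) called 1, against 0.456%. The fitted log2 fold change lay above 0 in 34 of the 44 and in 50.4% of all genes, with medians of 0.18 and 0.00. Over the 18 other settings the number above 0 ran from 30, without rFGF21 library 5, to 35.

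**Figure D2:**
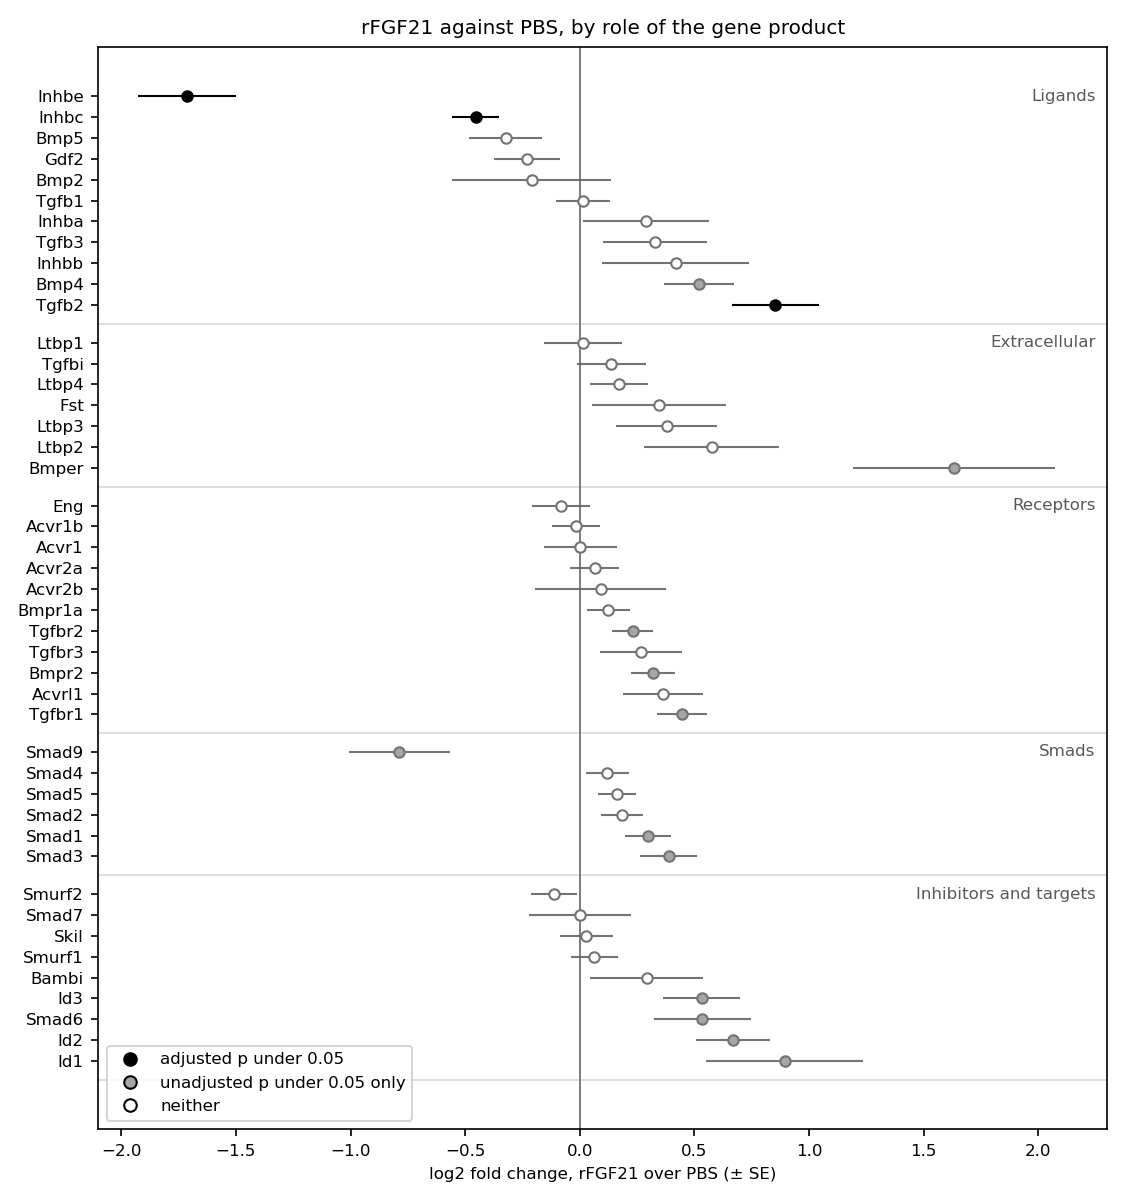
Log2 fold change of rFGF21 over PBS (± SE, edgeR) for the 44 genes, grouped by role and marked by whether they passed at an adjusted p, only at an unadjusted p, or neither. Inhbe lies lowest at -1.71, and the 3 genes past the adjusted threshold are all ligand genes.

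Among the ligands, the activin beta E gene Inhbe (ENSMUSG00000047492, GRCm38 chromosome 10, 127348857 to 127354411) had the smallest p of the set and rank 25 among all genes tested. PBS libraries 1, 2, 4 and 5 held 32.7, 52.6, 63.1 and 53.5 CPM. rFGF21 libraries 1, 2, 3 and 5 held 12.7, 12.1, 20 and 16.8 CPM. Every rFGF21 library lay below every PBS library, and PBS library 1 was the lowest of its group. Inhbe fell 3.28-fold, from 50.5 ± 12.7 to 15.4 ± 3.73 CPM (SD, n = 4 each), a log2 fold change of -1.71 ± 0.21 (SE, edgeR adjusted p = 0.00552). The call held whichever library was left out (edgeR adjusted p 0.00894 to 0.0255) and under DESeq2 and limma. Of 18 alternatives only the block on the column number, in 6 libraries, lost it (edgeR adjusted p = 0.0609).

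Inhbc encodes the activin beta C subunit and is the neighbour of Inhbe (ENSMUSG00000025405, chromosome 10, 127356322 to 127370431, both on the minus strand with 1910 bases between them). It stood at 37.9, 32.7, 44.7 and 36.9 CPM in PBS libraries 1, 2, 4 and 5. In rFGF21 libraries 1, 2, 3 and 5 it stood at 26.6, 28.2, 29.8 and 26.4 CPM. The groups did not overlap, and the rFGF21 libraries lay close together. The log2 fold change was -0.45 ± 0.10, a 1.37-fold fall (edgeR adjusted p = 0.0476). With PBS library 1 set aside the edgeR adjusted p rose to 0.105, with PBS 4 to 0.0624 and with PBS 5 to 0.0903. With rFGF21 library 1, 2, 3 or 5 set aside it was 0.133, 0.105, 0.0789 or 0.132, so the call was lost in 7 of 8 such fits, at log2 fold changes of -0.49 to -0.37. As a share of the summed RPKM of the 4 activin subunit genes, Inhbe made up 29.3 ± 5.49% in PBS and 13.9 ± 2.35% in rFGF21 libraries, and Inhbc 63.6 ± 4.63% and 72.4 ± 4.89%. The sum was 32.2 ± 4.53 RPKM in PBS and 20.7 ± 1.54 RPKM after rFGF21. The shares and the sum depend on the annotated exon lengths, 5319 bases for Inhbe and 1859 for Inhbc. The other activin subunit genes were not called: Inhba stood at 12.0 ± 3.82 and 14.7 ± 5.64 CPM, and Inhbb at 1.73 ± 0.867 and 2.32 ± 0.391 CPM.

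Tgfb2 (ENSMUSG00000039239, chromosome 1, 186622792 to 186705989), a TGF-beta isoform gene, rose 1.81-fold. It was read at 6.19, 7.41, 5.05 and 5.66 CPM in PBS libraries 1, 2, 4 and 5. In rFGF21 libraries 1, 2, 3 and 5 it was read at 12.6, 8.78, 8.71 and 13.8 CPM. The groups did not overlap, and rFGF21 libraries 1 and 5 stood above the other two. The log2 fold change was 0.85 ± 0.19 (edgeR adjusted p = 0.0421). This call did not survive setting aside PBS library 1 (edgeR adjusted p 0.0953), PBS 4 (0.0752), PBS 5 (0.0954), rFGF21 1 (0.127) or rFGF21 5 (0.114), at log2 fold changes of 0.72 to 0.87. Tgfb1, the most studied isoform in liver fibrosis, stood at 16.3 ± 2.18 CPM in PBS and 16.4 ± 1.5 CPM after rFGF21 (edgeR adjusted p = 0.966). The sign of its difference turned without PBS library 2 (-0.07) or rFGF21 library 5 (-0.05). Of the summed RPKM of the 3 TGF-beta genes Tgfb2 made up 17.1 ± 2.31% in PBS and 25.1 ± 2.04% after rFGF21, and Tgfb1 52.9 ± 8.40% and 44.1 ± 4.28%.

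Sequences are shown for the 3 called genes, because Inhbe and Inhbc fell as neighbours while Tgfb2 rose. Each is the 250 bases before the RefSeq start site (GRCm38.p6, minus strand, 5′ to 3′), and RefSeq promoters were matched for 33 of the 44 genes. Capitals mark matches, on either strand, to any of 8 motifs: the Smad box GTCTG, the GC-rich Smad site GGCGCC, the AP-1 site TGANTCA, the E-box CACGTG, the forkhead site GTAAACA, the HNF4 core CAAAGTC, the ETS site CGGAAGT, and TTGCATC, a part of the C/EBP-ATF element that was added after the Inhbe sequence had been seen.
Inhbe, chr10:127351849-127352098: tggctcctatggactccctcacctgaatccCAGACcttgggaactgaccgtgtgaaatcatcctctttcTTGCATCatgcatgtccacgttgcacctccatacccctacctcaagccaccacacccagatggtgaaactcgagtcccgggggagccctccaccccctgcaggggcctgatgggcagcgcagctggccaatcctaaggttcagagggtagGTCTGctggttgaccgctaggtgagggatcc
Inhbc, chr10:127370549-127370798: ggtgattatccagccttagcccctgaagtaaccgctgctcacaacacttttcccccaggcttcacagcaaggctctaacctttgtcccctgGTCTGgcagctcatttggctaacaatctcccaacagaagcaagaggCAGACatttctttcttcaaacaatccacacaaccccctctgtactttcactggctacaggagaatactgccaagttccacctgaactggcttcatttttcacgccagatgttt
Tgfb2, chr1:186705990-186706239: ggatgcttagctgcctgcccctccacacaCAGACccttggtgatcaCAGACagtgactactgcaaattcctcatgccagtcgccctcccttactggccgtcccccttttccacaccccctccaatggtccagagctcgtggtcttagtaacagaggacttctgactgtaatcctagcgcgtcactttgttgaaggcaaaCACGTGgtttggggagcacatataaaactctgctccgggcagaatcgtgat
The Smad box, CAGAC on the other strand, occurred 2 times in each window, and 42.2% of all 32851 RefSeq windows of this length hold it. TTGCATC stood at -181 to -175 from the start site of Inhbe, and 2.19% of windows hold it. The E-box of Tgfb2 lay at -51 to -46, and 6.02% of windows hold one. GGCGCC (9.59% of windows), TGANTCA (6.75%), GTAAACA (3.17%), CAAAGTC (3.84%) and CGGAAGT (4.92%) had no match in these windows. The Inhbe window lies inside the gene's span in the table. GC content was 58.8% for Inhbe, 48.8% for Inhbc and 53.6% for Tgfb2, against a median of 52.4% over all windows. A match describes these letters and says nothing about binding.

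Of the other 8 ligand genes, 0 were called by edgeR (1 at an unadjusted p under 0.05, 1 by DESeq2 and 0 by limma). That gene was Bmp4, a BMP of mesenchymal cells. It stood at 7.30, 9.80, 10 and 6.64 CPM in PBS libraries 1, 2, 4 and 5 and at 11.8, 12.1, 11.2 and 13.4 CPM in rFGF21 libraries 1, 2, 3 and 5. Its groups did not overlap (log2 fold change 0.52 ± 0.15, edgeR adjusted p = 0.103). Tgfb3, Bmp2, Bmp5, Gdf2, Inhba and Inhbb had log2 fold changes from -0.32 to 0.42 and edgeR adjusted p of 0.302 or more. Gdf2 was read at 22.7 ± 5.08 and 19.3 ± 1.29 CPM, and Bmp2, a ligand of the sinusoid, at 6.17 ± 2.48 and 5.33 ± 2.07 CPM.

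**Figure D3:**
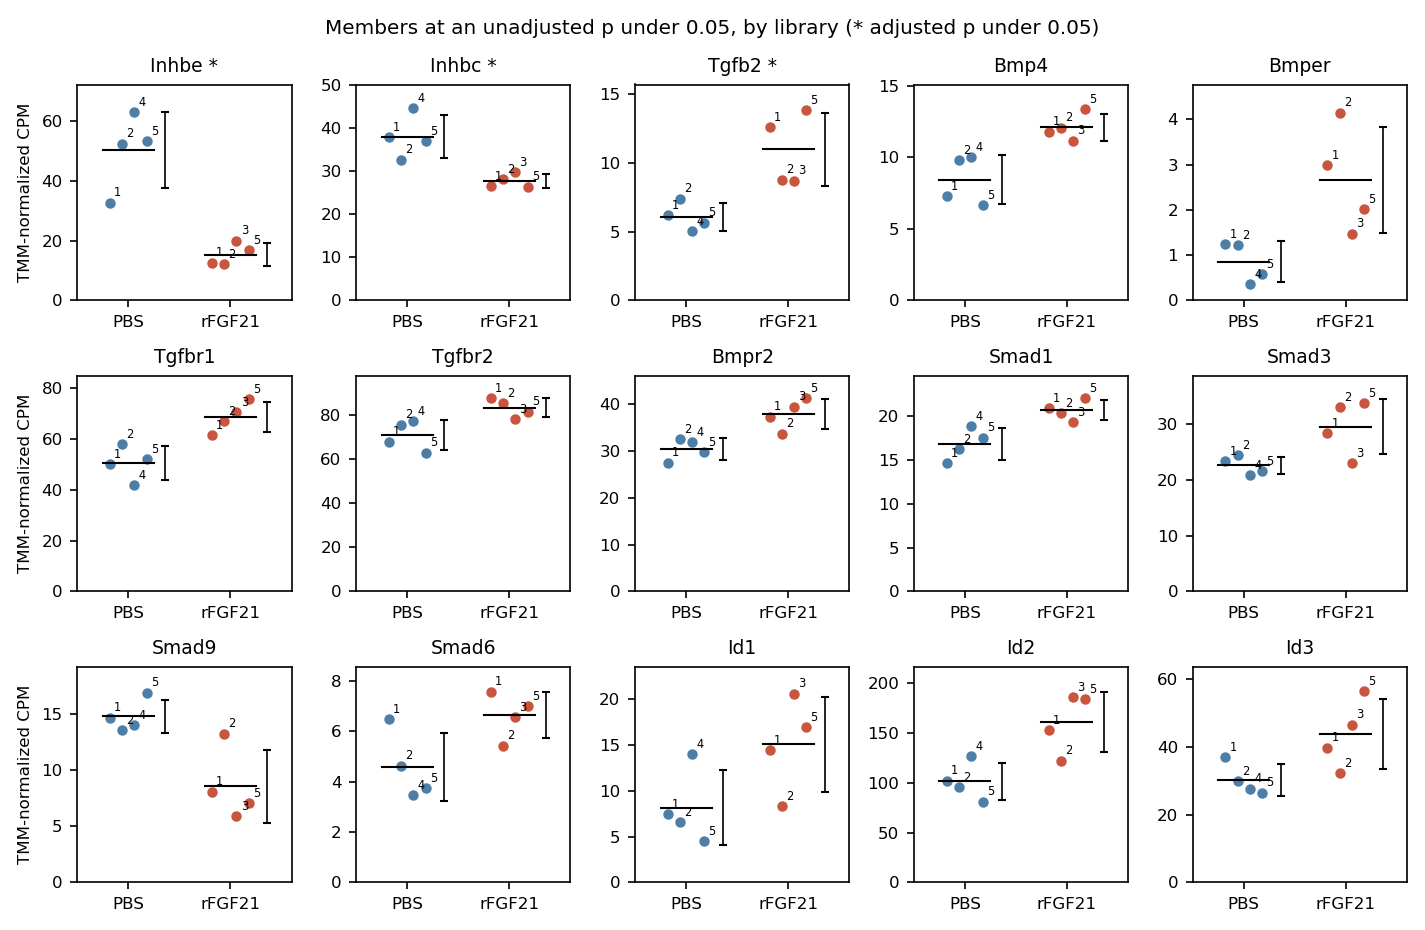
TMM-normalized CPM in each library for the genes at an unadjusted p under 0.05, with the library number beside each point, lines for group means and bars for the SD of 4 libraries. A star marks an adjusted p under 0.05, which Inhbe, Inhbc and Tgfb2 carry, and libraries of the groups overlap for Smad3, Smad6 and the 3 Id genes.

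The extracellular group holds the latent TGF-beta binding protein genes (Ltbp1 to Ltbp4), whose products anchor latent TGF-beta in the matrix, the activin trap gene Fst, the BMP modulator gene Bmper, and Tgfbi. Of the 7 genes 0 passed (edgeR, with 1 higher at an unadjusted p under 0.05, 1 called by DESeq2 and 0 by limma). The shares of all genes were 8.92% higher at an unadjusted p under 0.05 and 3.76% called higher by DESeq2. Bmper had the highest log2 fold change of the set, 1.63 ± 0.44, at low counts. It held 1.25, 1.23, 0.359 and 0.582 CPM in PBS libraries 1, 2, 4 and 5. After rFGF21 it held 2.98, 4.15, 1.48 and 2.02 CPM in libraries 1, 2, 3 and 5 (edgeR adjusted p = 0.0792). The groups did not overlap, and the lowest rFGF21 library, 3, was near PBS libraries 1 and 2. Tgfbi stood at 105 ± 24.4 and 116 ± 9.06 CPM (log2 fold change 0.14 ± 0.15, edgeR adjusted p = 0.680). Fst stood at 18.9 ± 5.38 and 24.0 ± 9.20 CPM, and Ltbp2 at 24.6 ± 6.47 and 36.7 ± 15.4 CPM. The 4 Ltbp genes and Fst had log2 fold changes from 0.01 to 0.57 and edgeR adjusted p of 0.326 or more. PBS library 4 was the lowest PBS library for all 7 of these genes.

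Of the 11 receptor genes 0 passed (edgeR, with 3 higher at an unadjusted p under 0.05, 2 called by DESeq2 and 0 by limma). Among all genes 8.92% were higher at an unadjusted p under 0.05, and DESeq2 called 3.76% higher. The TGF-beta type I receptor gene Tgfbr1 had the smallest p of the 11. It stood at 49.9, 57.8, 41.8 and 52.0 CPM in PBS libraries 1, 2, 4 and 5 and at 61.5, 67.0, 70.4 and 75.4 CPM in rFGF21 libraries 1, 2, 3 and 5. All rFGF21 libraries lay above all PBS libraries (log2 fold change 0.45 ± 0.11, edgeR adjusted p = 0.0589). The type II receptor gene Tgfbr2 stood at 67.8, 75.5, 77.2 and 62.8 CPM in PBS and at 87.6, 85.3, 78.1 and 81.3 CPM in rFGF21 libraries, in the same order of libraries. Its groups barely missed each other, at PBS library 4 and rFGF21 library 3 (log2 fold change 0.23 ± 0.09, edgeR adjusted p = 0.194). The BMP type II receptor gene Bmpr2 stood at 27.5, 32.5, 31.9 and 29.7 CPM in PBS and at 37.3, 33.7, 39.5 and 41.2 CPM in rFGF21 libraries, also without overlap (log2 fold change 0.32 ± 0.09, edgeR adjusted p = 0.104). Eng, a co-receptor gene of endothelium, stood at 75.4 ± 13.3 and 71.3 ± 7.53 CPM (log2 fold change -0.08 ± 0.13, edgeR adjusted p = 0.786), and its difference turned to 0.05 without PBS library 1. The type I receptor genes Bmpr1a, Acvr1, Acvr1b and Acvrl1, the activin type II receptor genes Acvr2a and Acvr2b, and the co-receptor gene Tgfbr3 had log2 fold changes from -0.02 to 0.36 and edgeR adjusted p of 0.292 or more.

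Of the 6 signalling Smad genes 0 passed (edgeR, with 2 higher and 1 lower at an unadjusted p under 0.05, 1 called lower by DESeq2 and 0 by limma). At that unadjusted p 8.92% of all genes were higher and 9.86% lower, and DESeq2 called 4.48% lower. Smad9, of the BMP branch, was the 1 Smad gene with a fitted value below 0. It stood at 14.7, 13.6, 14.0 and 16.9 CPM in PBS libraries 1, 2, 4 and 5 and at 8.11, 13.3, 5.89 and 7.07 CPM in rFGF21 libraries 1, 2, 3 and 5. The groups did not overlap, and rFGF21 library 2 lay just under the lowest PBS library. The log2 fold change was -0.79 ± 0.22 (edgeR adjusted p = 0.0911), and without rFGF21 library 2 it was -1.07 and passed (edgeR adjusted p = 0.0123). Smad1, of the same branch, stood at 14.7, 16.3, 18.9 and 17.6 CPM in PBS and at 21.0, 20.4, 19.4 and 22.1 CPM in rFGF21 libraries, without overlap (log2 fold change 0.30 ± 0.10, edgeR adjusted p = 0.144). Smad3, of the TGF-beta branch, stood at 23.4, 24.4, 20.9 and 21.6 CPM in PBS and at 28.5, 33.0, 23.0 and 33.8 CPM in rFGF21 libraries (log2 fold change 0.39 ± 0.13, edgeR adjusted p = 0.129), where rFGF21 library 3 lay among the PBS libraries. Smad2 and Smad5 had log2 fold changes of 0.18 and 0.16 (edgeR adjusted p = 0.319 and 0.331). Smad4, the common partner, stood at 26.8 ± 2.95 and 29.1 ± 0.859 CPM (edgeR adjusted p = 0.545).

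Among inhibitors and targets 0 of 9 passed (edgeR, with 4 higher at an unadjusted p under 0.05, 2 called higher by DESeq2 and 0 by limma). Of all genes tested, 8.92% were higher at an unadjusted p under 0.05 and 3.76% were called higher by DESeq2. The 3 Id genes encode helix-loop-helix proteins that block DNA binding of their partners. Id2 stood at 102, 96.1, 127 and 81.3 CPM in PBS libraries 1, 2, 4 and 5. In rFGF21 libraries 1, 2, 3 and 5 it stood at 153, 122, 187 and 184 CPM. The groups overlapped only at PBS library 4 and rFGF21 library 2 (log2 fold change 0.67 ± 0.16, edgeR adjusted p = 0.0565). Id2 passed without PBS library 4 (0.80, edgeR adjusted p = 0.0337) or without rFGF21 library 2 (0.79, 0.0384). Id1 stood at 7.44, 6.59, 14.0 and 4.53 CPM in PBS and at 14.5, 8.30, 20.6 and 17 CPM in rFGF21 libraries (log2 fold change 0.89 ± 0.34, edgeR adjusted p = 0.191). Id3 stood at 37.0, 29.9, 27.7 and 26.5 CPM in PBS and at 39.8, 32.2, 46.6 and 56.4 CPM in rFGF21 libraries (log2 fold change 0.53 ± 0.17, edgeR adjusted p = 0.121). For all 3 Id genes rFGF21 library 2 was the lowest of its group. Their summed RPKM was 65.6 ± 11.6 in PBS and 104 ± 21.9 after rFGF21, and Id2 held 63.5 ± 1.93% and 64.2 ± 1.91% of it.

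Over the 8 libraries the inhibitory Smad genes Smad7 and Smad6 averaged 2.17 and 1.75 RPKM, and the signalling Smad gene Smad9 averaged 2.18 RPKM. Smad6 stood at 6.47, 4.64, 3.47 and 3.76 CPM in PBS libraries 1, 2, 4 and 5 and at 7.58, 5.43, 6.56 and 7.01 CPM in rFGF21 libraries 1, 2, 3 and 5 (log2 fold change 0.53 ± 0.21, edgeR adjusted p = 0.203). PBS library 1 lay among the rFGF21 libraries. Smad7, the feedback inhibitor that TGF-beta induces, stood at 9.83 ± 3.20 and 9.83 ± 1.54 CPM (edgeR adjusted p = 1.0). Smurf1, Smurf2, Skil and the decoy receptor gene Bambi had log2 fold changes from -0.11 to 0.29 and edgeR adjusted p of 0.580 or more.

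**Figure D4:**
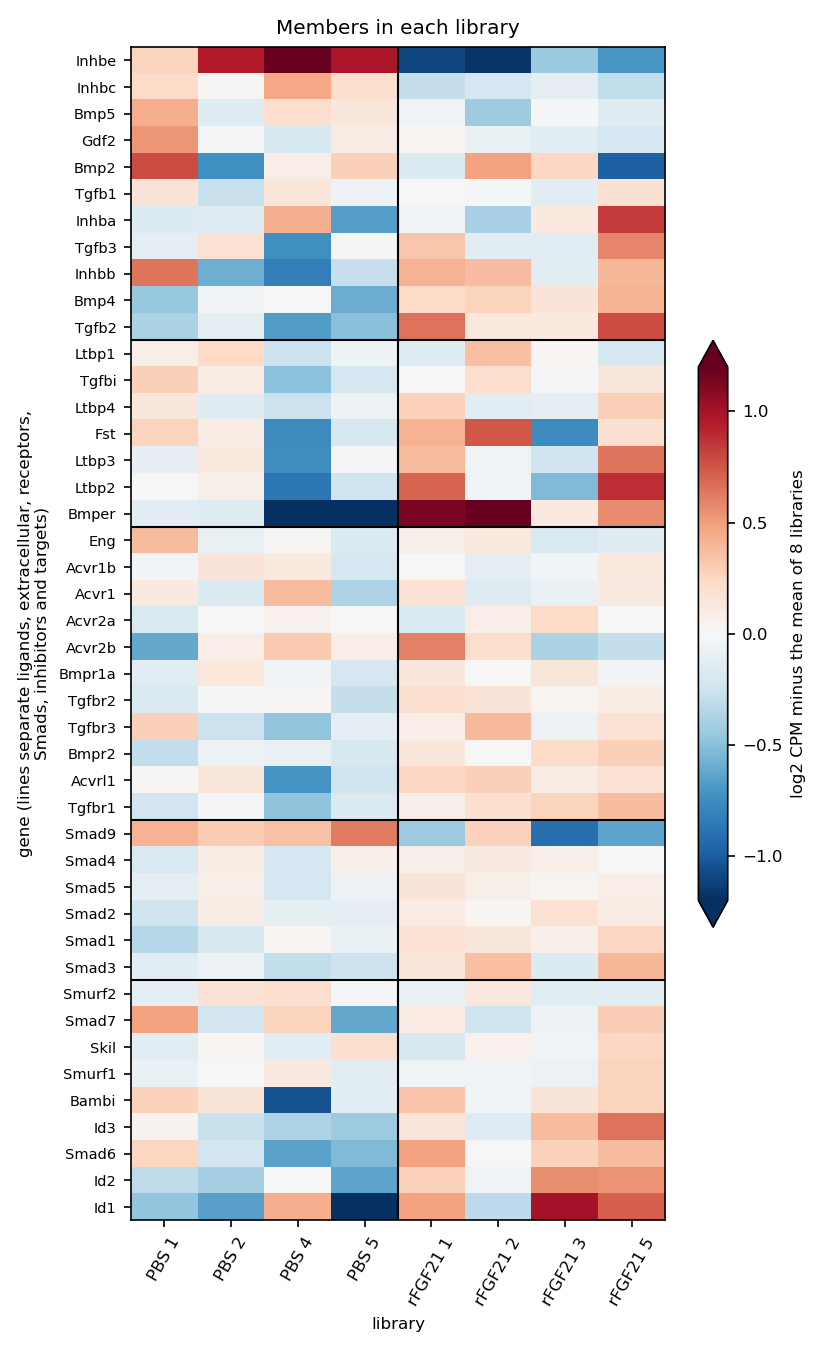
Level of each gene in each library as log2 CPM minus its mean over the 8 libraries, with colours clipped at 1.2 on either side and lines between role groups. Inhbe splits the 4 PBS from the 4 rFGF21 columns, and PBS 4 is the lowest PBS column in all 7 extracellular genes.

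To compare related genes free of scaling between libraries, the log2 ratio of their read counts was taken within each library for 6 pairs. Group means were compared with an exact two-sided permutation test, whose smallest possible p is 0.0286. The Inhbe to Inhbc log2 ratio was -0.21, 0.69, 0.50 and 0.54 in PBS libraries 1, 2, 4 and 5. In rFGF21 libraries 1, 2, 3 and 5 it was -1.07, -1.22, -0.58 and -0.65. Inhbe was lower relative to its neighbour in every rFGF21 library than in any PBS library, with a difference of -1.26 (exact permutation p = 0.0286, adjusted over the 6 pairs 0.171). The Smad7 to Smad6 log2 ratio was 1.08 ± 0.45 in PBS and 0.56 ± 0.14 in rFGF21 libraries (exact permutation p = 0.0571, adjusted 0.171). For Inhbb to Inhba, Id1 to Id2, Smurf2 to Smurf1 and Tgfbr1 to Tgfbr2 the differences were 0.25, 0.27, -0.17 and 0.22, with exact permutation p of 0.257 to 0.629. With 6 pairs a single pair at the smallest possible p reaches only 0.171 after adjustment, so the adjusted values say nothing about the Inhbe to Inhbc ratio. The Inhbb to Inhba difference moved by over 1.5 times without any one of the 8 libraries, from -0.13 without PBS library 4 to 0.56 without PBS library 1. Without PBS library 4 the Smad7 to Smad6 difference was -0.30 against -0.52 with it, the Tgfbr1 to Tgfbr2 difference was 0.09, and the Id1 to Id2 difference was 0.46. The Id1 to Id2 difference was 0.13 without PBS library 5 and 0.17 without rFGF21 library 3, and the Smurf2 to Smurf1 difference was -0.07 without rFGF21 library 5. The Inhbe to Inhbc difference lay between -1.45 and -1.14 whichever library was left out.

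**Figure D5:**
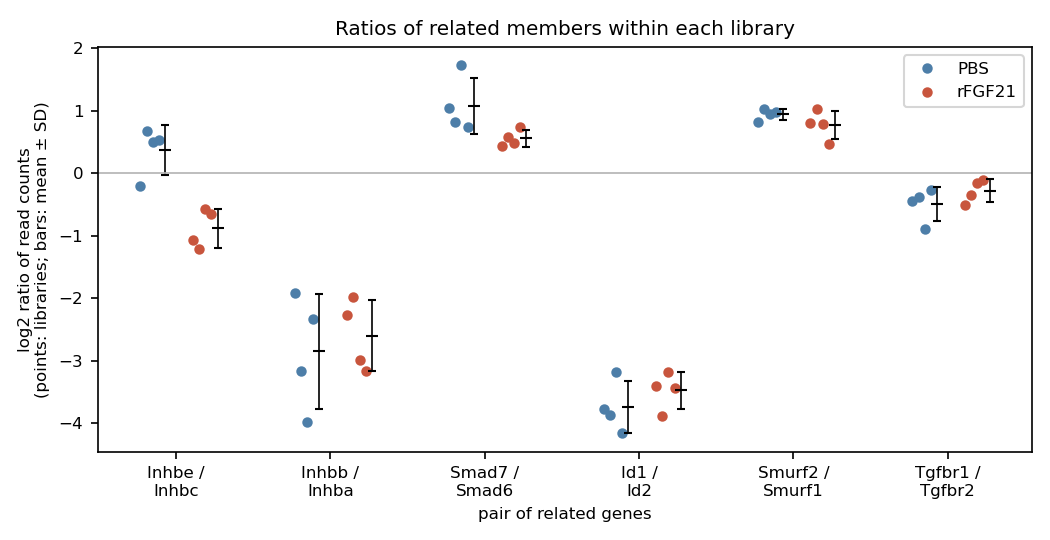
Log2 ratio of read counts for 6 pairs of related genes, 1 point per library, with bars for the mean and SD of 4 libraries per group. For Inhbe to Inhbc the PBS libraries lie between -0.21 and 0.69 and the rFGF21 libraries between -1.22 and -0.58.

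Other genes of the pathway were taken from lists of ligands, secreted modulators, receptors, signalling partners and target genes. Of 93 tested, 4 rose and 1 fell, against 1.15% and 1.67% of all genes tested. Bmp6, the sinusoidal ligand that controls hepcidin, went from 4.28 ± 0.619 to 7.28 ± 1.01 CPM (0.77 ± 0.17 on the log2 scale, edgeR adjusted p = 0.0385). Thbs1 and Itgav, whose products take part in releasing TGF-beta from its latent form, rose by 0.76 ± 0.17 and 0.46 ± 0.10 on the log2 scale (edgeR adjusted p = 0.0442 and 0.0421). Tgif1, a repressor of Smad-driven transcription, went from 28.6 ± 2.79 to 48.3 ± 7.59 CPM (0.76 ± 0.13, edgeR adjusted p = 0.0141). Klf10, an early target of TGF-beta, went from 17.7 ± 3.05 down to 9.88 ± 0.364 CPM (-0.84 ± 0.13, edgeR adjusted p = 0.0103). In all 5 the groups did not overlap, as in 12.3% of all genes. The 5 were picked by their adjusted p in these same libraries, so the lack of overlap adds no support. The Klf10 call held whichever library was left out, and Tgif1 lost its call without rFGF21 library 1 (edgeR adjusted p = 0.0516). Bmp6 and Thbs1 kept their calls only without rFGF21 library 3 (0.0417 and 0.0288), and Itgav only without rFGF21 library 2 (0.0448). With any other single library set aside, edgeR adjusted p reached 0.118 for Bmp6, 0.122 for Thbs1 and 0.126 for Itgav.

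By list, 1 of 14 other ligands, 2 of 18 secreted modulators and 1 of 24 signalling partners rose, and 0 fell. At an unadjusted p under 0.05 (edgeR), 1, 5 and 5 of them were higher and 2, 1 and 1 lower. The shares of all genes were 8.92% and 9.86%. Of 23 TGF-beta target genes 1 fell and 0 rose (edgeR, with 11 higher at an unadjusted p under 0.05, 4 called higher by DESeq2 and 0 by limma), at a median log2 fold change of 0.50. Over all genes 8.92% were higher at an unadjusted p under 0.05, and DESeq2 called 3.76% higher. Of 5 other receptors 0 were called (edgeR, with 0 at an unadjusted p under 0.05, 0 by DESeq2 and 0 by limma). Neo1, a receptor gene for repulsive guidance molecules, had the smallest p there (0.23 ± 0.12, edgeR adjusted p = 0.351). Of 9 BMP targets 0 were called (edgeR, with 1 lower at an unadjusted p under 0.05, 0 by DESeq2 and 0 by limma). Their median log2 fold change was -0.10. Hamp2, a near copy of the hepcidin gene Hamp, had the smallest p there, at 12.8 ± 7.06 and 6.79 ± 1.70 CPM (-0.91 ± 0.36, edgeR adjusted p = 0.205). Hamp itself stood at 690.5 ± 349 and 487 ± 120 CPM (-0.50 ± 0.31, edgeR adjusted p = 0.415). How reads were split between Hamp and Hamp2 is uncertain.

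Markers of liver cell types were read beside these genes, since in whole liver fewer cells of a type and less RNA per cell cannot be told apart. The 8 cholangiocyte markers summed to 174 to 274 CPM in PBS and 245 to 386 CPM in rFGF21 libraries, with a median log2 fold change of 0.64. That sum is mostly Spp1, at 184 ± 35.1 CPM in PBS and 226 ± 40.4 CPM after rFGF21 (log2 fold change 0.30, edgeR adjusted p = 0.363). None of the 8 was called (edgeR, 0 called with 6 higher at an unadjusted p under 0.05, 3 called higher by DESeq2 and 0 by limma). For this and the next lists, 8.92% of all genes were higher and 9.86% lower at an unadjusted p under 0.05. DESeq2 called 3.76% of all genes higher and 4.48% lower. The 12 stellate cell markers, of which 3 (Acta2, Col1a1 and Dcn) also stand in the pathway lists, summed to 526 to 679 and 594 to 765 CPM (edgeR 0 called, 2 higher at an unadjusted p under 0.05, 1 called by DESeq2 and 0 by limma). Sinusoidal endothelial markers summed to 187 to 342 and 209 to 310 CPM, macrophage markers to 951 to 1523 and 944 to 1263 CPM, and hepatocyte markers to 79550 to 99690 and 76160 to 92840 CPM. Median log2 fold changes were 0.17 for stellate, -0.08 for endothelial, -0.37 for macrophage and -0.16 for hepatocyte markers. Within the macrophage list the resident-cell markers Clec4f, Vsig4, Timd4, Cd5l and Marco had log2 fold changes from -1.22 to -0.49. Lyz2, C1qa and Csf1r, which make up much of the sum, lay between 0.16 and 0.24, Adgre1 at 0.04 and Cd68 at -0.24. The hepatocyte sum is mostly Alb (52270 and 53680 CPM), while Tat, which encodes tyrosine aminotransferase, averaged 2006 CPM in the PBS and 1005 CPM in the rFGF21 group (edgeR adjusted p = 0.174). Ahsg went the other way, from 12000 to 14810 CPM (edgeR adjusted p = 0.212). For both genes the groups overlapped, and rFGF21 library 2 held 1924 CPM of Tat. In the endothelial, macrophage and hepatocyte lists edgeR, DESeq2 and limma called 0 genes, and at an unadjusted p under 0.05 edgeR gave 0 endothelial, 1 lower macrophage, and 1 higher and 1 lower hepatocyte genes. No marker in the 5 lists was at 0 reads. The cholangiocyte sum was highest in rFGF21 libraries 5 (386 CPM) and 1 (339 CPM), which were also highest for Tgfb2. It was lowest in PBS library 4 (174 CPM), the lowest PBS library for all extracellular genes. The stellate sum was likewise highest in rFGF21 libraries 5 (765 CPM) and 1 (709 CPM) and lowest in PBS library 4 (526 CPM). Bmper was instead highest in rFGF21 library 2 (4.15 CPM), which had the lowest cholangiocyte sum of its group (245 CPM). The part of these cell types in the differences of Inhbe, Tgfb2, Bmper and the other genes was not tested.

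Single libraries stood at the edge of many of the 44 genes. PBS library 4 was the lowest PBS library for 20 of them (45.5%, against 32.5% of all genes tested). rFGF21 library 3 was the lowest of its group for 20 (45.5%, against 23.8%), and rFGF21 library 5 the highest for 17 (38.6%, against 28.9%). Without rFGF21 library 1, 2, 3 or 5 the number of the 44 called was 1, 4, 2 and 1, and without PBS library 1, 2, 4 or 5 it was 1, 3, 2 and 1. Over all genes, in the same order, 131, 277, 283 and 171 were called, and 207, 352, 486 and 251, of 18590 to 18713 tested. Inhbe was called in each of these 8 fits.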

How the data were processed

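Per the labels' protocols, libraries of liver RNA came from an Illumina TruSeq kit, and the submitters' processing notes name Bowtie 0.12.2 and mm8. The deposited table holds raw read counts per gene, per the file headers. Its identifiers match GENCODE mouse release 21 for 30177 of 30266 genes, 26331 with identical coordinates and strand (39 of the 44 genes here), so coordinates are given as GRCm38. The counting tool and strand setting: not given in the sources used here. Reads of overlapping antisense genes can therefore not be told apart. The table has 5 count columns per group for 4 samples in the labels. Those used, 4 per group, are the ones for which the header also lists FPKM. The other 2 count columns and the 8 FPKM columns were not used (10 in all), because column numbers pick out groups and not single samples, so 1 measure was kept.

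The main test was edgeR 4.0.16 in R 4.3.3: filterByExpr, TMM scaling, glmQLFit and glmQLFTest without covariates, two-sided, with Benjamini-Hochberg adjustment over 18315 genes. SE follows from the F statistic. RPKM is TMM-scaled CPM per kilobase of GENCODE exon union. The test was tried on simulated data, with 50 genes altered per fold size. It recovered 16.0% of genes altered 1.5-fold and 44.0% of those altered 2-fold. Larger alterations were found more often, with 76.0% recovered for 4-fold and 94.0% for 8-fold. False calls made up 7 among 122. Most 1.5-fold and 2-fold changes went undetected, so a gene without a call is not shown to be unchanged. Each pair of libraries differed by far more than sampling noise (chi-square per degree of freedom at least 51.1). Ratios used 0.5 added reads and SciPy 1.17.1.

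Alternatives were RLE and upper-quartile scaling, no filter or at least 10 reads in 4 libraries, DESeq2 1.42.0, limma 3.58.1 on log2(RPKM + 1) or log2(RPKM + 0.1) and at a mean RPKM of at least 1, leaving out each library, and a block on the column number. Values are given for members at an unadjusted p under 0.05 and for the highest member of each role. Tgfb1, Smad7 and members given only as levels were added after their values were seen. Ratios' left-out libraries and single cell markers were chosen after their values were seen. Other pathway genes are named when called, or when first by p in a list without a call. Hamp was added beside Hamp2 after its values were seen. The genes, lists and tests were chosen with earlier results of these data known. Promoters are from RefSeq (GRCm38.p6).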

Additional observations from a re-analysis of the deposited data

How the results depend on the processing

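Over all genes 516 were called by edgeR, 1508 by DESeq2, 198 without a filter on low counts, 134 by limma on log2(RPKM + 1), 152 on log2(RPKM + 0.1), and 131 to 486 when 1 library was left out. Of the 44 genes 3 were called, 10 by DESeq2, 1 without a filter, 1 by limma on log2(RPKM + 1), 1 on log2(RPKM + 0.1), and 1 to 4 when 1 library was left out. Of the other pathway genes 5 were called, 10 by DESeq2, 2 without a filter, 0 by limma on log2(RPKM + 1) (24 at an unadjusted p under 0.05), 1 on log2(RPKM + 0.1), 3 at a mean RPKM of at least 1, and 1 to 4 when 1 library was left out. Of 18 alternatives Inhbe was called in 17, Tgfb2 in 7 and Inhbc in 6, and 32 of the 44 genes kept their sign in all 18. When 1 library was left out Tgfb1 ran from -0.0654 to 0.0748, Eng from -0.1375 to 0.0525, Smad7 from -0.1559 to 0.19, and the Inhbb to Inhba ratio difference from -0.128 to 0.5618. Smad7, at -0.0001 by edgeR, was 0.0023 under DESeq2 and RLE scaling, 0.0032 under upper-quartile scaling, 0.0003 without a filter, 0.0213 on log2(RPKM + 1) with or without a minimum mean, and 0.043 on log2(RPKM + 0.1). The cause was not tested. Alternatives planned on the authors' FPKM were not run, and the RPKM settings that replaced them were chosen after seeing the data. With 3 libraries against 4 the exact permutation test cannot go below 0.0571. Depth limits Bmper, Inhbb and Acvr2b most, with 21, 63 and 90 reads in their lowest libraries.

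Column numbers 1, 2 and 5 occur in both groups. Deviations from the group means correlated at 0.07, -0.04 and -0.10 between libraries of one number. PBS library 1 and rFGF21 library 1 correlated best with each other, while the libraries numbered 2 and 5 did not. These values do not show a pairing by number, and they cannot exclude one. With the replicate block on these 6 libraries edgeR called 12 genes, 0 of the 44 (15 at an unadjusted p under 0.05) and 0 other pathway genes (22). Without the block the same 6 libraries gave 281, 1 and 2, a comparison chosen after seeing the data. With the block Inhbe was at -1.72 (edgeR adjusted p = 0.0609) and Smad7 at 0.1678, against 0.1159 without it.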
